A study of Caenorhabditis elegans with 6 samples.

Results

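The X chromosome of Caenorhabditis elegans was described in consecutive windows of 500 bp, taken as every window of the deposited count table whose chromosome is X. There were 35438 such windows among 200566 in the table. They were divided into 3 segments of nearly equal length: a left segment (11812 windows), a middle segment (11813 windows, from position 5906001) and a right segment (11813 windows, from position 11812501 to 17718854). RNA depleted of ribosomal RNA was sequenced from early embryos of 3 genotypes, with 2 independent biological replicates of each. The genotypes were a strain deleted for both met-2 and set-25 (GW638), a strain deleted for cec-4 (GW828), and the wild-type strain GW1. Animals of each strain were grown synchronously in liquid culture, and embryos were collected from gravid adults by hypochlorite treatment.

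MET-2 and SET-25 are histone methyltransferases that place methyl groups on lysine 9 of histone H3, a mark of silent chromatin that in worms is concentrated on chromosome arms, repeats and pseudogenes. CEC-4 is found at the inner nuclear membrane, where its chromodomain binds this mark and anchors the chromosome arms. The worm X differs from the autosomes in several ways. It is transcribed from both copies in hermaphrodites at a level reduced by the dosage compensation complex, it is largely silent in the germ line, and H3K9 methylation is strongest on its left arm.

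The deleted genes followed the labels, although reads remained over each of them. met-2 stood at 80.3 and 72.0 CPM (counts scaled to a common library total) in met-2 set-25 libraries, against 400 and 357 CPM in wild-type libraries. set-25 stood at 28.3 and 23.04 CPM in met-2 set-25, against 113 and 95.2 CPM in wild-type. cec-4 stood at 99.7 and 77.9 CPM in cec-4 libraries, against 282 and 272 CPM in wild-type. The X windows held between 3799913 and 6339566 counts per library. Vitellogenins, yolk proteins made in the adult intestine, summed to between 12 and 34 counts per library, and sperm msp genes, of which 30 of 35 were in the gene table, to at most 0.199 CPM. All 5 zygotic regulators of the embryo looked at (end-1, end-3, hlh-1, pha-4 and elt-2) were detected, and their summed level was 325 ± 8.88 CPM in met-2 set-25, 340 ± 6.87 CPM in cec-4 and 342 ± 58.2 CPM in wild-type (SD, n = 2 each). The maternally supplied transcripts skn-1, pie-1 and mex-5 were less even, summing to 262 and 128 CPM in met-2 set-25, 290 and 387 CPM in cec-4, and 258 and 220 CPM in wild-type. Whether the embryo pools differed in stage was not tested. Replicates of a genotype differed by more than sampling noise on X, since the chi-square over its degrees of freedom was 10.3 in met-2 set-25, 10.6 in cec-4 and 14.9 in wild-type. All p-values below measure the spread between these cultures.

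The whole chromosome took a similar part of the transcripts in the 3 genotypes. X windows held 10.4% and 11.01% of the nuclear window counts in the met-2 set-25 libraries, 10.8% and 11.9% in the cec-4 libraries, and 10.5% and 12.5% in the wild-type libraries. These shares leave out mitochondrial windows and 25 windows with ribosomal RNA genes at the end of chromosome I. In each genotype replicate 2 was the higher of the pair, and the ranges of the genotypes overlapped. The means were 10.7% ± 0.425 in met-2 set-25, 11.3% ± 0.737 in cec-4 and 11.5% ± 1.37 in wild-type (SD, n = 2 each). The two-sided exact permutation p was 0.667 for met-2 set-25 relative to wild-type, and it was 1 for cec-4 against wild-type, where 0.333 is the smallest value that 2 libraries against 2 allow. With all windows in the denominator, the log2 ratio of the mean shares of met-2 set-25 and wild-type was 0.02, in place of -0.10, so its sign depended on the denominator. In bulk embryos, fewer cells of a type and less RNA per cell cannot be told apart.

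The share of X moved with the level of muscle genes between replicates. Summed over 25 genes of muscle structure from all chromosomes, the level was 2209 and 2420 CPM in met-2 set-25, 2243 and 3688 CPM in cec-4, and 2097 and 3658 CPM in wild-type, with no gene at 0 in any library. The libraries with the highest X shares, wild-type replicate 2 and cec-4 replicate 2, were also those with the most muscle transcript. The sum includes muscle genes on X, so both measures share some counts. The part of muscle transcript in the X share was not tested.

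An X window carried fewer counts than an autosomal window in every library. The mean count of X windows was 0.541 and 0.577 times that of autosomal windows in met-2 set-25, 0.565 and 0.627 times in cec-4, and 0.548 and 0.663 times in wild-type. The middle segment was the most transcribed, with 39.9% ± 0.365 of the X counts in met-2 set-25, 39.5% ± 0.110 in cec-4 and 39.8% ± 0.0206 in wild-type (SD, n = 2 each). The left segment held 34.8% ± 0.531 in met-2 set-25, 34.9% ± 0.0955 in cec-4 and 35.1% ± 0.171 in wild-type. The right segment held the least, 25.3% ± 0.896 in met-2 set-25, 25.6% ± 0.0145 in cec-4 and 25.2% ± 0.191 in wild-type. The order of the segments was the same in the 3 genotypes.

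**Figure D1:**
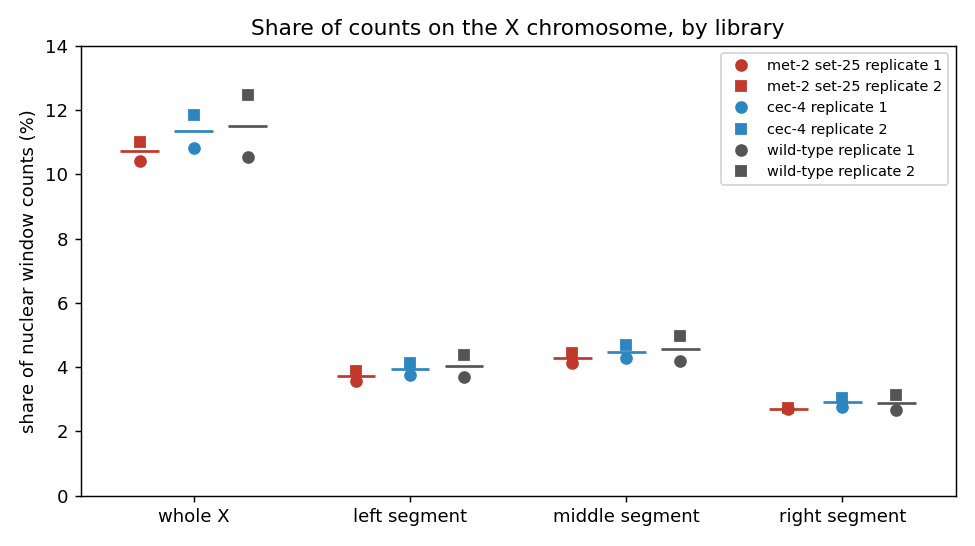
Share of nuclear window counts (percent, vertical axis) on the whole X and on its left, middle and right segments, with 1 point for each library (circles replicate 1, squares replicate 2) and a bar at the mean of the pair. Each mutant overlaps wild-type in the whole X and in each segment, wild-type replicate 2 is the highest at 12.5%, and in the right segment both met-2 set-25 points (2.70% and 2.72%) lie below both cec-4 points (2.77% and 3.04%).

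A few X windows accounted for a visible part of these counts. The window with the largest wild-type share of X counts, 0.725%, lay on lbp-1, which encodes a secreted fatty acid binding protein. It held 540 and 646 CPM in met-2 set-25, 442 and 290 CPM in cec-4, and 583 and 406 CPM in wild-type. The windows that followed lay on the replication-dependent histone gene his-38 (0.642%), the calumenin gene calu-1 (0.631%), the gap junction gene inx-3 (0.424%) and the histone gene his-40 (0.399%). None of these 5 windows passed the test in either mutant, with log2 fold changes between -0.15 and 0.26 for met-2 set-25 relative to wild-type and between -0.61 and -0.07 for cec-4 against wild-type. his-38 and his-40 have near copies elsewhere in the genome, so their counts are uncertain.

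As sums, the segments of X were the lowest of 18 chromosome segments in met-2 set-25 relative to wild-type, but the differences were within the replicate error. The log2 fold change of the share was -0.11 (SE 0.0948) for the left segment, -0.09 (SE 0.0887) for the middle segment and -0.09 (SE 0.0927) for the right segment. The adjusted p over the 18 segments was 0.703 for the left segment and 0.715 for the middle and right segments by edgeR's quasi-likelihood test. These values rested on wild-type replicate 2. Without it the changes were 0.02, 0.03 and 0.03 for the left, middle and right segment. Without wild-type replicate 1 they were -0.24, -0.21 and -0.20, and the left and middle segments passed with an edgeR adjusted p of 0.00193 each. In such a fit the lone wild-type library is assumed to vary like those of the other genotypes, so this p carries no spread of wild-type. For cec-4 against wild-type the log2 changes of the left, middle and right segment were -0.03, -0.03 and 0.01, with edgeR adjusted p of 0.823, 0.823 and 0.926.

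At single windows the same small offset was spread along the chromosome. Of the X windows, 18117 were abundant enough to be tested, namely 6186 in the left segment, 6249 in the middle segment and 5682 in the right segment, and 2288 had no count in any library. In met-2 set-25 relative to wild-type the median log2 fold change was -0.13 over X windows, with 34.5% of them positive, and -0.01 over autosomal windows, with 48.9% positive. By segment of X it was -0.12 on the left, -0.13 in the middle and -0.12 on the right. Over genes the median was -0.12 for the 2006 tested genes on X and -0.01 for autosomal genes. In cec-4 against wild-type the window median was -0.04 on X and -0.01 on autosomes, and in met-2 set-25 against cec-4 it was -0.07 on X and 0.01 on autosomes. The 3 comparisons share libraries. The offset of X from the autosomes in met-2 set-25, -0.12 on the log2 scale, was -0.0098 without wild-type replicate 2 and -0.23 without wild-type replicate 1, and it was not tested, since windows are not replicates.

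**Figure D2:**
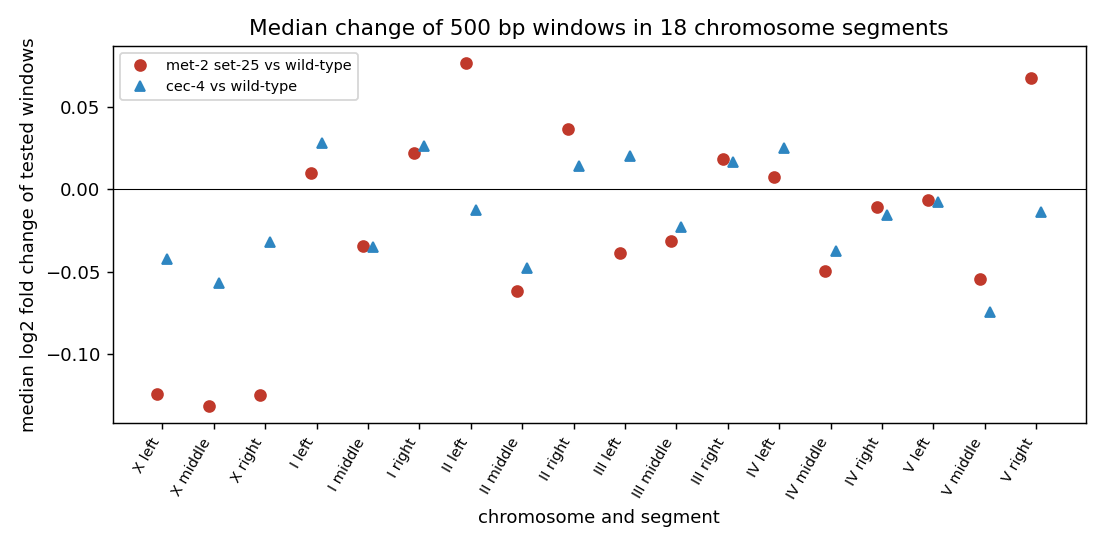
Median log2 fold change of the tested windows (vertical axis) in the left, middle and right segment of each chromosome, for met-2 set-25 relative to wild-type (circles) and cec-4 against wild-type (triangles). The 3 segments of X lie between -0.12 and -0.13 for met-2 set-25, lower than the autosomal segments plotted, while the cec-4 values of X lie between -0.03 and -0.06.

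The medians were lower on X at each level of transcription in met-2 set-25 relative to wild-type. With the tested windows ranked by count into 4 equal bins, the median of the lowest bin was -0.18 on X and -0.06 on autosomes, and that of the highest bin was -0.08 on X and 0.03 on autosomes. The lists of X-linked genes in the next paragraph are read against the median of -0.12 over all tested genes of X.

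None of the X-linked members of 8 gene lists passed the test in any of the 3 comparisons. Since 0.659% of all tested genes were higher in met-2 set-25 relative to wild-type, and 0.199% of those on X, a count of 0 in lists of this size is not a result about them. Of genes for sex determination and dosage compensation, 8 of 8 on X were tested, with a median log2 fold change of -0.06 in met-2 set-25 relative to wild-type and 2 positive. xol-1, the switch gene of sex determination that is repressed in hermaphrodites, held 26.2 and 20.9 CPM in met-2 set-25, 16.03 and 14.5 CPM in cec-4, and 18.1 and 15.4 CPM in wild-type. The met-2 set-25 libraries were above the others, but the change of 0.49 (SE 0.235) had an edgeR adjusted p of 0.984. sex-1, a nuclear receptor that counts X chromosomes by repressing xol-1, held 202 and 148 CPM in met-2 set-25 and 175 and 205 CPM in wild-type, and these ranges overlapped. Chromatin regulators on X (6 tested) had a median of -0.03. Among them lin-15A, a synMuv gene, had 114 and 101 CPM in met-2 set-25, 87.0 and 89.7 CPM in cec-4, and 83.0 and 70.7 CPM in wild-type, a log2 change of 0.48 (SE 0.172, edgeR adjusted p = 0.590).

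The median changes of tissue gene lists on X were below -0.12, with members of both signs, and the difference from the X median was not tested. Muscle structure genes (9 tested) had a median of -0.38 in met-2 set-25 relative to wild-type with 2 positive, and -0.17 in cec-4 against wild-type with 4 positive. tni-1, a troponin I, held 143 and 147 CPM in met-2 set-25, 146 and 181 CPM in cec-4, and 158 and 254 CPM in wild-type. For tni-1, wild-type replicate 2 stood apart at the top. In the summed muscle level it was close to cec-4 replicate 2 (3658 and 3688 CPM). Wild-type replicate 1 lay below both met-2 set-25 libraries in that sum. The tni-1 change of -0.51 (SE 0.237) had an edgeR adjusted p of 0.960. Neuronal genes (19 tested) had a median of -0.23 with 1 positive, epidermal and cuticle genes (9 tested) one of -0.33 with 1 positive, and embryonic fate regulators (15 of 17 tested) one of -0.15 with 4 positive. The X-linked housekeeping and translation genes (7 tested) had a median of -0.21 with 0 positive, among them eef-1A.2, a translation elongation factor, at 330 and 195 CPM in met-2 set-25, 375 and 625 CPM in cec-4, and 299 and 453 CPM in wild-type. Of the X-linked vitellogenin genes, 1 of 5 was tested, with a log2 change of -0.27. In cec-4 against wild-type the medians of these 8 lists lay between -0.17 and 0.17.

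A small number of X windows were higher in met-2 set-25 embryos than in wild-type, and most lay in the left segment. By edgeR's quasi-likelihood test with Benjamini-Hochberg adjustment over all 108036 tested windows (threshold 0.05), 26 X windows were higher, or 0.144% of those tested, beside 0.446% over the whole genome (482 windows) and 0.507% on the autosomes. Of the 26, 19 lay in the left segment (0.307%), 5 in the middle segment (0.08%) and 2 in the right segment (0.0352%). A single stretch of 12500 bp, described below, held 12 of the 19, so the left share rested mostly on 1 place. The share on the whole of X was below the background of the genome, and that of the left segment was between the X and the autosomal share. No X window was lower, beside 0.0241% over the genome (26 windows). At an unadjusted p under 0.05 edgeR gave 254 higher X windows (1.4%, beside 3.01% over the genome) and 460 lower (2.54%, beside 1.71%). These higher windows did not lean to the left, with 83 in the left segment (1.34%), 68 in the middle (1.09%) and 103 in the right (1.81%). DESeq2 gave 39 higher and 0 lower after adjustment.

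**Figure D3:**
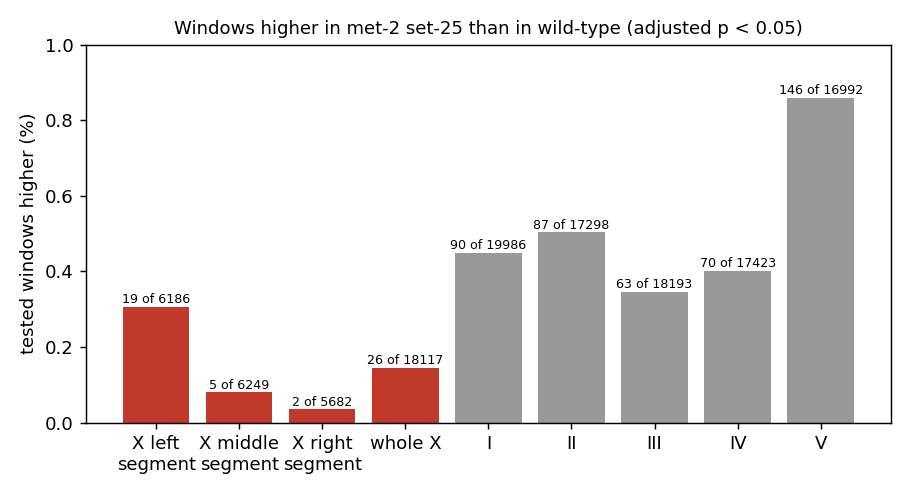
Percentage of tested windows that were higher in met-2 set-25 embryos than in wild-type (vertical axis; edgeR adjusted p under 0.05) in the 3 segments of X, the whole X and the 5 autosomes, with the number higher of the number tested above each bar. The left segment of X reaches 0.307%, the middle and right segments 0.08% and 0.0352%, and chromosome V is highest with 0.859%. In the left segment 12 of the 19 higher windows lie in a single stretch of 12500 bp.

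Most of the 26 windows were weakly transcribed in wild-type. Their log2 fold changes ran from 1.37 to 5.53 with a median of 2.72, and 22 of them were under 1 CPM in wild-type. Low counts were common on X, where the median over all its windows was a mean count of 7.83. The share of all tested X windows under 1 CPM is not given here. Windows that the abundance filter admitted through met-2 set-25 alone are low in wild-type by selection. The median level was 1.85 CPM in met-2 set-25, 0.411 CPM in cec-4 and 0.380 CPM in wild-type. In all 26 both met-2 set-25 libraries were above both cec-4 libraries, although the same met-2 set-25 libraries had chosen the windows, and 20 of them also passed against cec-4. In cec-4 against wild-type, which shares the wild-type libraries with the choice, their log2 fold changes ran from -0.64 to 1.98 with a median of 0.05. They formed 15 separate runs, of which 7 joined 2 or more windows.

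By annotation, 10 of the 26 windows overlapped a pseudogene, 7 a protein-coding gene without a pseudogene, and 9 no annotated gene. Among the tested X windows 310 overlapped a pseudogene and no protein-coding gene, and 3.23% of these were higher. Few pseudogenes held them: Y73B3A.13 (4 windows), fbxa-46 (3), fbxc-37 (2) and fbxc-38 (1). Windows of the same pseudogene are not separate cases. The share was 0.0482% of 14521 protein-coding windows and 0.334% of 2696 windows without a gene. In these shares, a window on both kinds of gene was classed as protein-coding, also on the autosomes. On the autosomes 3.67% of pseudogene windows, 0.386% of protein-coding windows and 0.755% of windows without a gene were higher. The median log2 fold change of pseudogene windows on X was 0.14, while it was -0.11 for protein-coding windows and -0.29 for windows without a gene. The abundance filter can admit a window through the met-2 set-25 libraries alone. X:123501-124000, without a gene, entered with 73 and 113 counts there, against 2 to 4 counts in each other library. Such windows are positive by selection, so these shares and medians are not support for a difference between the classes.

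**Figure D4:**
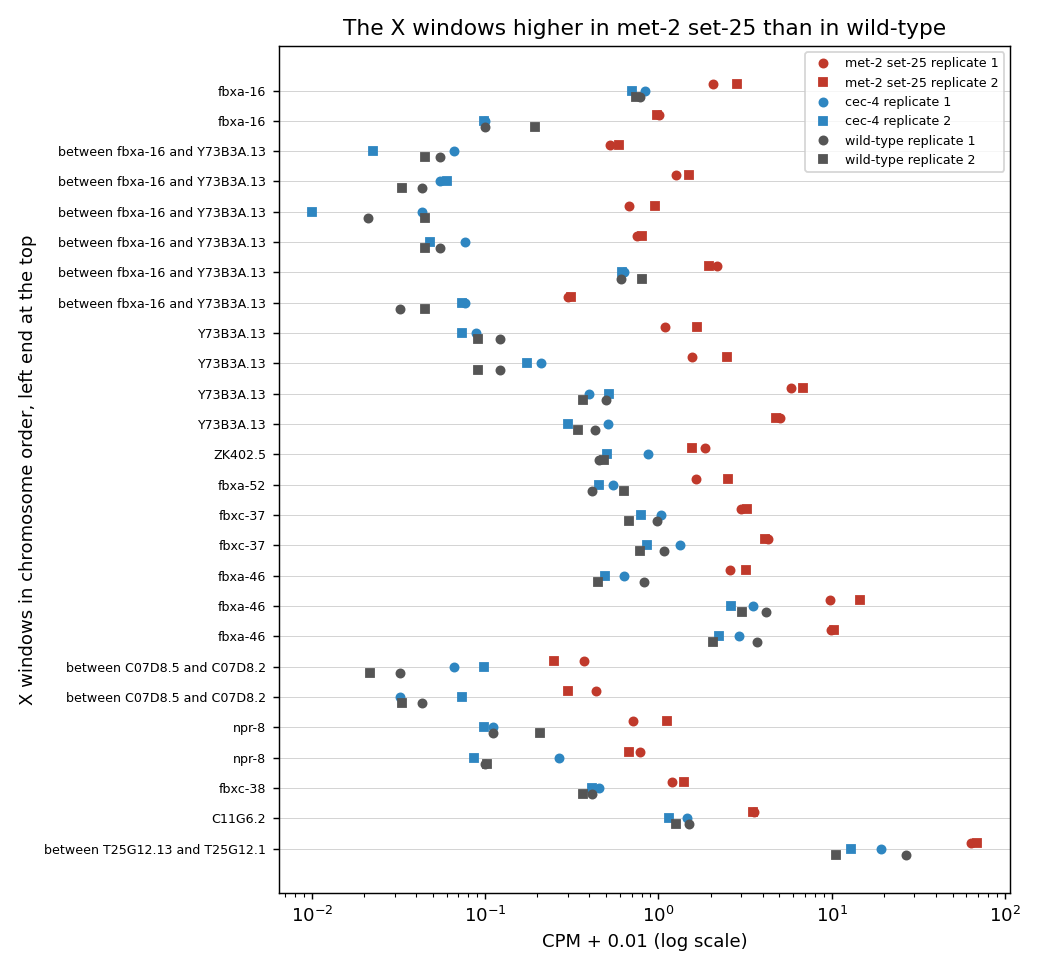
Level of the 26 X windows higher in met-2 set-25 embryos than in wild-type (CPM + 0.01, log axis) in each of the 6 libraries, in chromosome order with the left end at the top, labelled by the gene they overlap or by the genes on either side. In every window both met-2 set-25 points lie to the right of the cec-4 and wild-type points, and the lowest cec-4 point is a window with no count.

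The densest group lay close to the left telomere. A stretch of 12500 bp, from 120501 to 133000 in the coordinates of the deposited table, of unnamed build, held 12 of the 26 windows. It reaches from fbxa-16, which encodes an F-box protein of the type that brings substrates to ubiquitin ligases, to the pseudogene Y73B3A.13, and no gene is annotated between these. Of its 25 windows 18 were tested. Summed over the stretch, the level was 31.5 and 35.4 CPM in met-2 set-25, 7.59 and 7.24 CPM in cec-4, and 6.73 and 7.78 CPM in wild-type. The met-2 set-25 libraries lay apart from the other 4, while cec-4 and wild-type overlapped. Both ends of the stretch were set by windows already called with these libraries, so the distance from wild-type was built into the choice. The distance from cec-4 shares the met-2 set-25 libraries with that choice.

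The largest fold change among the 26 windows was in the gap between these genes, where wild-type had few counts. The window X:123501-124000 held 73 and 113 counts in met-2 set-25, 4 and 4 counts in cec-4, and 3 and 2 counts in wild-type. The log2 fold change of met-2 set-25 relative to wild-type was 5.53 (SE 0.499, edgeR adjusted p = 0.000161). Its neighbours on the right behaved alike. X:124001-124500 held 39 and 71 counts in met-2 set-25, 3 and 0 in cec-4, and 1 and 3 in wild-type (log2 change 5.06, edgeR adjusted p = 0.00315), and X:124501-125000 held 43 and 60 counts in met-2 set-25, 6 and 3 in cec-4, and 4 and 3 in wild-type (4.22, edgeR adjusted p = 0.00174). These 3 adjoining windows were nearly silent in every cec-4 and wild-type library.

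Within the same gap a patch was transcribed in all genotypes. X:126001-126500 held 2.56 and 2.79 CPM in met-2 set-25, 1.08 and 0.910 CPM in cec-4, and 0.913 and 1.13 CPM in wild-type. It passed the test against cec-4 (log2 change 1.42, edgeR adjusted p = 0.0475) and not against wild-type. The window X:127501-128000 at the other edge of the patch, with 2.18 and 1.96 CPM in met-2 set-25, 0.624 and 0.607 CPM in cec-4, and 0.602 and 0.798 CPM in wild-type, passed against both.

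The pseudogene at the right edge of the stretch carried the highest levels in met-2 set-25. Y73B3A.13 (WBGene00022215, X:131022-132691 on the plus strand in WBcel235) held 21.5 and 25.3 CPM in met-2 set-25, 1.70 and 1.72 CPM in cec-4, and 1.86 and 1.43 CPM in wild-type in the gene table. The met-2 set-25 libraries were far above all others, and cec-4 lay within the wild-type range. The log2 fold change was 3.83 against wild-type (SE 0.295, edgeR adjusted p = 0.00204) and 3.77 against cec-4 (SE 0.295, edgeR adjusted p = 0.00216). Its 4 windows had log2 changes between 3.68 and 4.36 against wild-type. The highest of them in level, X:132001-132500, held 340 and 515 counts in met-2 set-25, 35 and 40 in cec-4, and 44 and 31 in wild-type, and had the smallest adjusted p on X (6.55e-05, edgeR).

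fbxa-16 itself (WBGene00022216) was at 3.54 and 5.26 CPM in met-2 set-25, 1.38 and 1.55 CPM in cec-4, and 1.58 and 1.29 CPM in wild-type. Both met-2 set-25 libraries were above the other 4, but the gene did not pass over all genes (log2 change 1.62, SE 0.338, edgeR adjusted p = 0.110), while 2 of its windows did. Its left neighbour fbxa-222, another F-box gene, was at 8 and 14 counts in met-2 set-25, 4 and 2 counts in cec-4, and 4 and 3 counts in wild-type, with an edgeR adjusted p of 0.423.

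**Figure D5:**
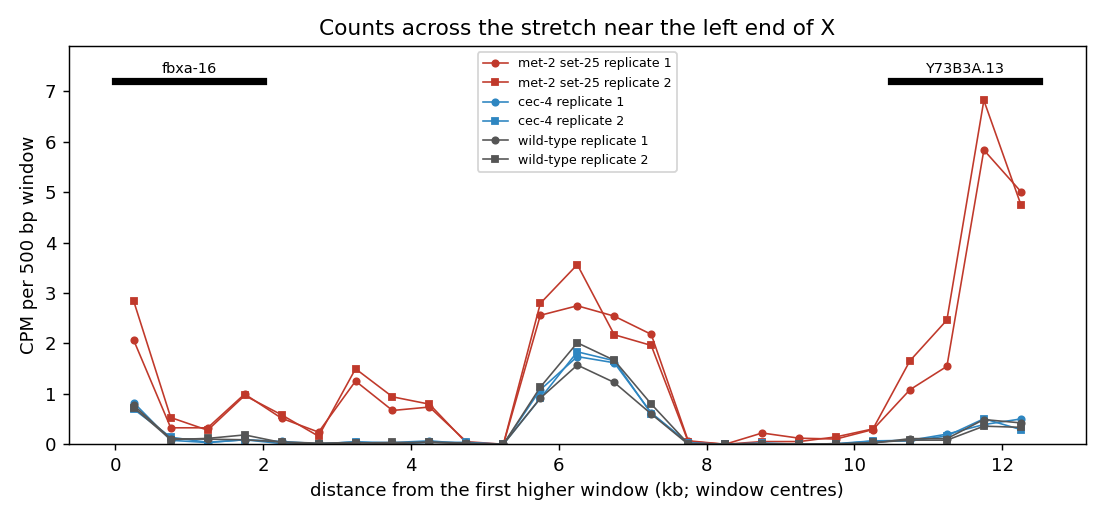
Level of each 500 bp window (CPM, vertical axis) against distance from the first higher window (kb) across the stretch near the left end of X, with 1 line for each library and bars over the windows that overlap fbxa-16 and Y73B3A.13. The met-2 set-25 lines rise to 6.82 CPM over Y73B3A.13 and stand above the other lines in the first part of the gap, while all genotypes share a patch of counts near the middle.

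Further right in the left segment, the higher windows fell on members of the F-box family and 1 other gene. The pseudogene fbxc-37 (WBGene00017942, X:1779232-1780527, WBcel235) held 11.7 and 10.4 CPM in met-2 set-25, 3.86 and 3.21 CPM in cec-4, and 3.06 and 2.17 CPM in wild-type. The groups did not overlap, and the log2 change was 2.07 against wild-type (SE 0.304, edgeR adjusted p = 0.0264) and 1.64 against cec-4 (SE 0.299, edgeR adjusted p = 0.0663). The pseudogene fbxa-46 (WBGene00018690, X:1981900-1984833, WBcel235) held 36.01 and 41.3 CPM in met-2 set-25, 11.9 and 10.5 CPM in cec-4, and 14.8 and 9.09 CPM in wild-type. Its log2 change was 1.69 against wild-type (SE 0.282, edgeR adjusted p = 0.0440) and 1.79 against cec-4 (SE 0.283, edgeR adjusted p = 0.0364). It lies opposite linc-6 and F52D2.14, and without a stated use of strand their reads cannot be told apart.

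fbxa-52 (WBGene00017225), a protein-coding F-box gene, held 5.86 and 7.86 CPM in met-2 set-25, 1.70 and 2.05 CPM in cec-4, and 1.44 and 2.74 CPM in wild-type. It had 1 higher window, and as a gene it missed the threshold (log2 change 1.71, edgeR adjusted p = 0.132). The remaining window of the left segment lay on ZK402.5, with 1.84 and 1.55 CPM in met-2 set-25, 0.858 and 0.493 CPM in cec-4, and 0.446 and 0.474 CPM in wild-type (log2 change 1.87, edgeR adjusted p = 0.0311).

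Grouped after these values were seen, F-box genes and pseudogenes named fbxa, fbxb or fbxc accounted for 9 of the 26 windows. There were 22 of them on X, and 15.8% of their 57 tested windows were higher, beside 0.446% over the genome. Of the 15 F-box genes and pseudogenes abundant enough to be tested, 2 passed, and 13 had a positive log2 change, the changes running from -0.43 to 2.07 with a median of 0.30. Over all genes 0.659% were higher, and 32.3% of the tested X genes had a positive change. The abundance filter can admit a gene or window through the met-2 set-25 libraries alone. fbxa-222 entered with 8 and 14 counts in met-2 set-25, against 2 to 4 counts in each other library. Such members are positive by selection, so these shares are not support for a change of the family. F-box genes form families of near copies, so reads may be shared between members.

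In the middle segment, the higher windows lay on npr-8, fbxc-38 and between genes. npr-8 (WBGene00016984, X:7377302-7388404, WBcel235), a neuropeptide receptor gene, held 3.31 and 3.81 CPM in met-2 set-25, 0.772 and 0.701 CPM in cec-4, and 0.503 and 0.811 CPM in wild-type. The met-2 set-25 libraries were above the other 4, with a log2 change of 2.44 against wild-type (SE 0.368, edgeR adjusted p = 0.0285) and 2.27 against cec-4 (SE 0.366, edgeR adjusted p = 0.0392). The RNA gene C56G3.4 lies on its other strand. The 2 higher windows of npr-8 were towards the end of the gene, X:7387001-7388000. The pseudogene fbxc-38 had 1 higher window, with 69 and 105 counts in met-2 set-25, 40 and 32 in cec-4, and 36 and 31 in wild-type (log2 change 1.76, edgeR adjusted p = 0.0351).

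The gap between C07D8.5 and C07D8.2 held 2 adjoining higher windows with few counts. X:7349001-7349500 held 21 and 18 counts in met-2 set-25, 5 and 7 in cec-4, and 2 and 1 in wild-type, and X:7349501-7350000 held 25 and 22 counts in met-2 set-25, 2 and 5 in cec-4, and 3 and 2 in wild-type. The log2 changes were 4.01 (SE 0.743, edgeR adjusted p = 0.0285) and 3.59 (SE 0.689, edgeR adjusted p = 0.0351). Neither window was tested when a mean count of at least 10 was required, and neither passed at an edgeR adjusted p under 0.01. These calls were lost in 5 and 6 of 14 alternative settings.

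Both higher windows of the right segment were transcribed in wild-type as well. One lay on C11G6.2, with 3.57 and 3.52 CPM in met-2 set-25, 1.46 and 1.14 CPM in cec-4, and 1.49 and 1.25 CPM in wild-type, the smallest log2 change of the 26 (1.37, SE 0.276, edgeR adjusted p = 0.0472). The other, X:17245501-17246000 between T25G12.13 and T25G12.1, was the most abundant of the 26 windows. It held 63.8 and 69.2 CPM in met-2 set-25, 19.3 and 12.9 CPM in cec-4, and 26.9 and 10.6 CPM in wild-type. The wild-type libraries differed widely between themselves but stayed below both met-2 set-25 libraries, and the log2 change was 1.83 (SE 0.355, edgeR adjusted p = 0.0381).

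In the gene table, 4 of the 2006 tested X genes were higher in met-2 set-25 embryos than in wild-type, or 0.199%, beside 0.659% over all 13951 tested genes. They were Y73B3A.13, fbxc-37, npr-8 and fbxa-46, of which 3 are pseudogenes. No X gene was lower by edgeR, beside 0.0287% over all genes. At an unadjusted p under 0.05 edgeR gave 41 higher X genes (2.04%, beside 4.67% over all genes) and 25 lower (1.25%, beside 1.04%). DESeq2 gave 10 higher and 1 lower after adjustment. Without met-2 set-25 replicate 1, and likewise without its replicate 2, 1 X gene passed. Y73B3A.13 passed in 13 of 13 alternative settings.

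The windows rested on both met-2 set-25 libraries. The count of 26 fell to 12 without met-2 set-25 replicate 1 and to 7 without its replicate 2, and all 7 were in the left segment. It was 49 without wild-type replicate 1 and 42 without cec-4 replicate 1. The windows at 123501, 124501, 131001, 131501, 132001 and 132501 passed in 15 of 15 alternatives.

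In cec-4 against wild-type no X window passed the test in either direction. Over the genome 0.00185% of the tested windows were higher (2 windows) and 0 were lower. At an unadjusted p under 0.05 edgeR gave 148 higher X windows (0.817%, beside 0.817% over the genome) and 189 lower (1.04%, beside 0.958%). DESeq2 gave 0 in each direction after adjustment. Over genes edgeR called 0 on X, beside 0.00717% higher over all genes, and DESeq2 called 0. Unadjusted, with p under 0.05, edgeR gave 5 higher X genes (0.249%, beside 0.294% over all genes) and 13 lower (0.648%, beside 0.645%). The X window of smallest p lay on prmn-1, with 23 and 14 counts in cec-4 against 61 and 53 counts in wild-type (log2 change -1.56, edgeR adjusted p = 1). The next lay on R04B3.3, with 5 and 5 counts in cec-4 against 25 and 28 in wild-type (-2.31, edgeR adjusted p = 1). A gap between acn-1 and vit-2 held 18 and 23 counts in cec-4 against 4 and 4 in wild-type (2.39, edgeR adjusted p = 1).

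met-2 set-25 was also set against cec-4, which compares loss of the methyltransferases with loss of the anchor. In this comparison 39 X windows were higher, or 0.215%, beside 0.495% over the genome, and 3 were lower, beside 0.0296%. Of the 39, 28 lay in the left segment, 2 in the middle segment and 9 in the right segment. By gene, 3 on X were higher than in cec-4 (0.15%), beside 0.609% over all genes, and 0 were lower by edgeR, beside 0.0287%. Unadjusted, with p under 0.05, edgeR gave 71 higher X genes (3.54%, beside 5.97% over all genes) and 92 lower (4.59%, beside 4.26%). The windows share the met-2 set-25 libraries with the comparison above, and 19 of them had not passed against wild-type. The count ran from 10 without met-2 set-25 replicate 2 to 110 without wild-type replicate 1, and the count of lower windows from 0 to 68 with single libraries left out.

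Of the windows that passed only against cec-4, 3 adjoining ones lay on col-165, a cuticle collagen gene. Its central window held 13.9 and 21.9 CPM in met-2 set-25, 3.43 and 6.33 CPM in cec-4, and 5.93 and 11.3 CPM in wild-type. The met-2 set-25 libraries were above all others, wild-type replicate 2 came nearest, and the log2 change was 1.88 against cec-4 (edgeR adjusted p = 0.0317). A run of 3 windows on the pseudogene Y13C8A.4 near the right end included X:16888501-16889000, with 3.76 and 2.01 CPM in met-2 set-25, 0.780 and 0.657 CPM in cec-4, and 0.624 and 1.11 CPM in wild-type (log2 change 1.996 against cec-4, edgeR adjusted p = 0.0306). Y64H9A.2 had 23 and 43 counts in its window in met-2 set-25, 5 and 4 in cec-4, and 12 and 6 in wild-type (3.15 against cec-4, edgeR adjusted p = 0.0213).

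Of the 3 lower windows, 2 lay on the RNA gene C30E1.9. X:16936501-16937000 held 0.326 and 0.132 CPM in met-2 set-25, 0.825 and 1.81 CPM in cec-4, and 0.512 and 0.763 CPM in wild-type (log2 change -2.55 against cec-4, edgeR adjusted p = 0.0386). X:16942501-16943000 held 2.11 and 1.56 CPM in met-2 set-25, 3.72 and 11.07 CPM in cec-4, and 3.19 and 3.83 CPM in wild-type (-2.01, edgeR adjusted p = 0.0466), with cec-4 replicate 2 far above the rest. The remaining one lay between F38B2.4 and inx-2, with 11 and 13 counts in met-2 set-25, 67 and 60 in cec-4, and 35 and 38 in wild-type (-2.06, edgeR adjusted p = 0.0345). In all 3 the wild-type libraries lay above both met-2 set-25 libraries.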

How the data were processed

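The authors deposited raw read counts for windows of 500 bp and for genes, per the file headers and values. Per the labels' protocols, ribosomal RNA was depleted with a Ribo-Zero kit and ScriptSeq v2 libraries were sequenced on an Illumina HiSeq. The aligner, build, strand use and treatment of multiple matches are not stated there. Gene names come from WBcel235. Gene positions and window counts matched best at no shift, with a Spearman correlation of 0.939 over 2576 X genes and 0.913 and 0.899 at a shift of 500 bp to either side.

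Tests used edgeR 4.0.16 (R 4.3.3; filterByExpr, TMM, quasi-likelihood, 1 fit of 6 libraries by genotype, Benjamini-Hochberg over all windows or genes). The 18 chromosome segments (3 for each nuclear chromosome) were fitted with nuclear totals as library sizes. CPM uses TMM-adjusted totals, and an SE is the absolute log2 change over the root of F. The same steps were also run on simulated data, whose outcome is not given here and is not used as support. DESeq2 1.42.0, other scalings, filters, a replicate block and left-out libraries were alternatives. Window totals were 63512536 to 92014755. The 95% Wilson interval of an X share covers counting error only.

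Members and gene lists were chosen with earlier results of these data known. Named were up to 10 higher and 10 lower windows by fold change (mean count of at least 10), runs of adjoining windows, passing genes (at least 1 CPM), the 5 smallest p where under 5 passed, the 5 most abundant, and up to 4 members a list. Other windows and genes named, among them single higher windows, fbxa-222 and the F-box grouping, were chosen after their values were seen.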

Additional observations from a re-analysis of the deposited data

How the results depend on the processing

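With an adjusted p under 0.01, the higher X windows of met-2 set-25 relative to wild-type numbered 10, all 10 in the left segment. They were 17 with total nuclear counts, 14 with gene-table TMM factors and 78 with no filter (36 in the left segment, with 8 lower). Higher X genes were 1 at 0.01, 10 with no filter and 10 with DESeq2, which gave 1 lower. Against cec-4, higher and lower windows were 15 and 0 at 0.01, 24 and 1 with upper quartile scaling, 21 and 1 with total nuclear counts, 15 and 0 with gene-table factors, 124 and 77 with no filter, and 92 and 34 with those genotypes alone in the fit. DESeq2 gave 21 lower.

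With single libraries left out, met-2 set-25 relative to wild-type gave 7 to 49 higher windows, 7 to 25 in the left segment, 0 to 14 lower windows, 1 to 4 higher genes and 0 to 1 lower genes. Against cec-4 it gave 10 to 110 higher and 0 to 68 lower windows, and cec-4 against wild-type gave 0 to 1 lower windows. The X minus autosomal median ran from -0.23 to -0.0098 for met-2 set-25 and from -0.14 to 0.0623 for cec-4, both against wild-type. The log2 change of the left, middle and right segment ran from -0.24 to 0.0173, -0.21 to 0.0322 and -0.20 to 0.0256 for met-2 set-25, and from -0.15 to 0.10, -0.15 to 0.10 and -0.10 to 0.13 for cec-4. The log2 ratio of the X share ran from -0.22 to 0.0253 for met-2 set-25 and from -0.14 to 0.11 for cec-4. A genotype left with 1 library is assumed to vary like the others. The causes were not tested.

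With all windows as denominator the share ratio was 0.0178 for met-2 set-25 relative to wild-type and 0.11 against cec-4. The right segment in cec-4 reversed to -0.0232 with window TMM factors and to -0.0026 without the 10 most abundant windows of each chromosome.

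Replicate numbers were not shown to pair samples: the deviations of same-numbered libraries correlated at 0.0126, 0.153 and 0.564 between genotypes. With a replicate block, met-2 set-25 gave 56 higher windows (30 in the left segment) and 12 higher genes against wild-type, and 79 higher and 23 lower windows against cec-4.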
